A study of Mus musculus with 8 samples.

Results

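The genes described here are 9 ligand-activated nuclear receptors, Rara, Rarg, Rxra, Rxrb, Vdr, Nr3c1, Nr1h2, Pparg and Rora, in regulatory T (Treg) cells of the mouse large intestine. They were taken by symbol from a table of RNA-seq read counts with 19191 gene rows, where each of the 9 symbols occurred in 1 row. Treg cells, the suppressive CD4 T cells that carry the transcription factor Foxp3, were sorted by flow cytometry from lamina propria. The mice were C57BL/6, and their age is not given in the labels. Every mouse carried Foxp3Yfp-Cre, which drives Cre recombinase from the Foxp3 locus and so deletes floxed alleles in Treg cells. The WT group had the genotype Ahrf/+ Foxp3Yfp-Cre, with a floxed and an intact allele of Ahr, so its Treg cells keep the intact allele. The KO group had Ahrf/- Foxp3Yfp-Cre, with a floxed allele and a null allele, so that cells outside the Treg lineage were heterozygous in KO mice only. Effects within Treg cells and effects of that surrounding tissue cannot be told apart in this design. There were 2 RNA-seq libraries per genotype, numbered replicate 1 and replicate 2. Since no label ties the libraries to different animals, the p-values below reflect spread among these samples, and that spread may be technical.

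Nuclear receptors are transcription factors that small lipophilic molecules switch on directly, which lets a cell read vitamins, steroids, sterols and fatty acids as changes in transcription. Many of them bind DNA as a pair with a retinoid X receptor (RXR), whereas the glucocorticoid receptor pairs with itself and the ROR receptors bind alone. Ahr, the aryl hydrocarbon receptor, is a ligand-activated factor of an unrelated family that reads dietary and microbial compounds. In the gut, retinoic acid made from vitamin A promotes Foxp3 induction and the expression of gut-homing receptors, and vitamin D, glucocorticoids and sterol ligands are also known regulators of intestinal T cells.

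Between 26862922 and 62402450 reads were counted per library, and both replicate 2 libraries were deeper than both replicate 1 libraries. Ahr itself was counted at 581 and 539 CPM (reads scaled to 1000000 in the tested genes) in the WT libraries and at 536 and 518 CPM in the KO libraries, with a log2 fold change of -0.09 ± 0.09. Counts over a whole gene do not show a deleted exon, so these values checked neither the deletion nor the labels. Ahrr, an Ahr-induced gene, stood at 7.30 and 6.55 CPM (WT) against 0.391 and 0.265 CPM (KO), with a log2 fold change of -4.42 ± 0.31. All 6 defining Treg markers were present in every library, among them Foxp3 at 280 and 252 CPM (WT) against 250 and 259 CPM (KO). Summed, the 6 stood at 5889 and 5547 CPM (WT) against 6629 and 6149 CPM (KO), led by Ctla4. By log2 fold change, 3 of them were higher and 3 lower in KO. Both KO libraries exceeded both WT libraries for 2 of the 6, against 13.5% of all tested genes. Log2 fold changes are of KO over WT, with standard errors after the ± sign.

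None of the 9 receptors was called different between genotypes. edgeR's quasi-likelihood test gave an adjusted p of 1.00 for every one of them, where 0% of the 14274 tested genes were called at an adjusted p under 0.05. DESeq2 called none of the 9 (0.267% of its 17996 genes were called). With limma-voom, 0 of the 14274 tested genes were called, so its missing calls carry no information specific to the 9 receptors. The authors' deposited table had 0.344% of genes at an adjusted p under 0.05. There, each of the 9 had an adjusted p of 0.889, a value that 18289 of the 19191 genes share. All 9 passed the filter on low counts, with 995 to 247550 reads over the 4 libraries. The same edgeR test did not call Ahrr either (adjusted p = 0.218), despite its log2 fold change of -4.42. Ahrr was called by DESeq2 (adjusted p = 3.11e-18) and in the authors' deposited table (1.32e-08). A missing edgeR call is therefore weak evidence of no difference. At an unadjusted p under 0.05, edgeR had 2 of the 9, Pparg and Rarg, both higher in KO, against 1.64% of all tested genes in that direction and 1.21% in the other. With the replicate number added as a block, a fit that called 3.21% of all genes, Pparg was called and the other 8 were not. Of those 8, Rarg missed the threshold narrowly (edgeR with the block, adjusted p = 0.0501). The 9 log2 fold changes ran from -0.09 to 0.64 with a median of 0.04, beside a median of 0.01 over all genes tested. The 95% interval lay within a 2-fold change either way for 8 of the 9, the exception being Pparg.

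**Figure D1:**
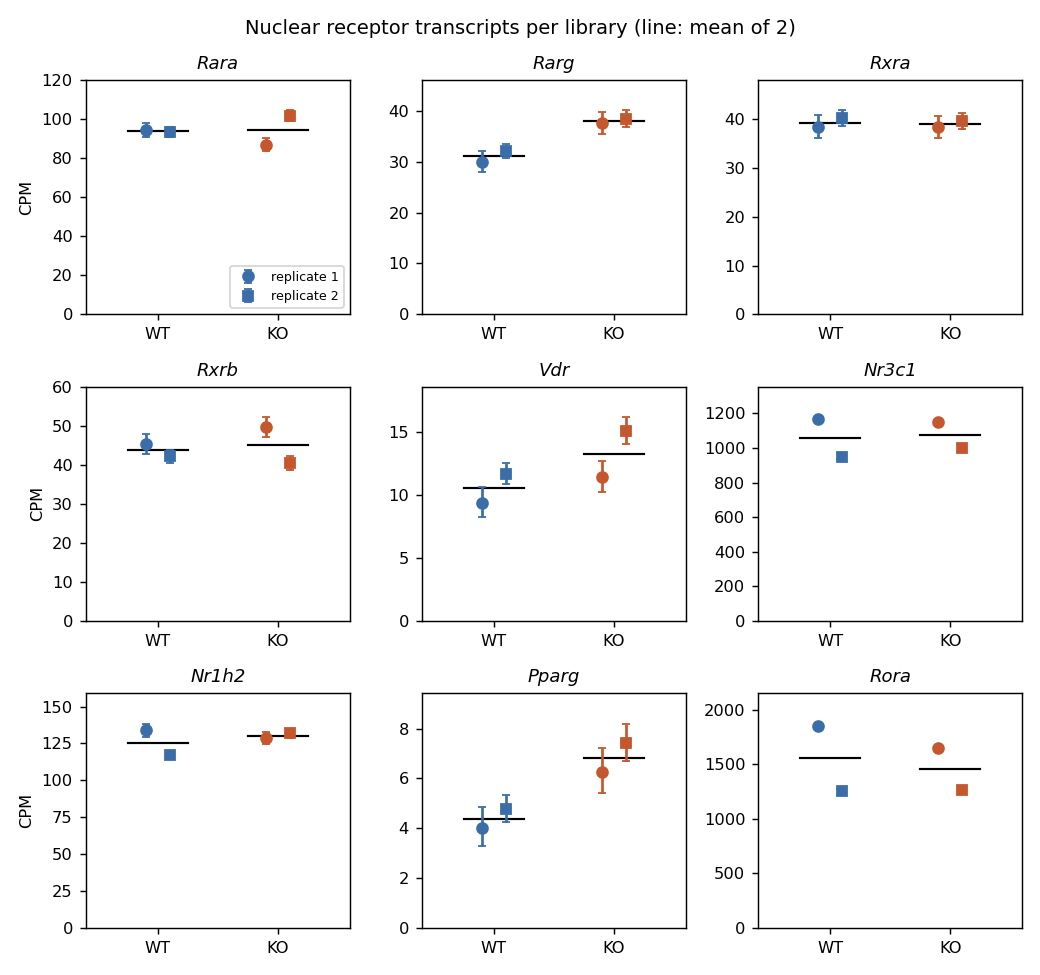
Each panel plots 1 receptor gene, with CPM on the y axis from 0 and genotype on the x axis; circles are replicate 1, squares replicate 2, bars exact 95% Poisson intervals of the count (too small to see for the deepest genes) and black lines the mean of 2 libraries. Pparg and Rarg are the panels in which both KO libraries lie above both WT libraries, and in Rora the 2 replicates of a genotype lie further apart than the genotype means.

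The retinoic acid receptors bind DNA with an RXR partner and respond to the vitamin A product all-trans retinoic acid. Rara, the alpha receptor (chromosome 11, 98789132 to 98836256, plus strand, mm9), stood at 94.7 and 93.5 CPM in WT replicates 1 and 2 and at 87.0 and 102 CPM in KO replicates 1 and 2. The KO libraries lay on either side of the WT libraries. The log2 fold change of Rara was 0.01 ± 0.11, with a 95% interval of -0.27 to 0.28.

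Rarg, the gamma receptor (chromosome 15, 102065369 to 102087948, minus strand), stood at 30.0 and 32.02 CPM (WT) against 37.6 and 38.4 CPM (KO). Both KO libraries were above both WT libraries, as in 13.5% of all tested genes. The means were 31.0 ± 1.42 CPM for WT against 38.0 ± 0.559 CPM for KO (SD, n = 2). The log2 fold change of Rarg was 0.29 ± 0.10 (95% interval 0.04 to 0.54), and the log2 ratios within replicates 1 and 2 were 0.32 and 0.26. The difference was larger than the spread between replicates but did not pass correction in edgeR (unadjusted p = 0.0305, adjusted p = 1.00). In DESeq2 the unadjusted p of Rarg was 0.0558. Rarg ends 3003 bp from Itgb7, an integrin gene on the same strand with 662 and 788 CPM (WT) against 738 and 823 CPM (KO), a difference of 0.11 ± 0.12 on the log2 scale, whose part in the Rarg value was not tested.

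Rxra and Rxrb encode the alpha and beta partners that Rara, Rarg, Vdr, Nr1h2 and Pparg all share. Rxra (chromosome 2, 27531960 to 27618477, plus strand) stood at 38.4 and 40.2 CPM (WT) against 38.4 and 39.6 CPM (KO). These 4 values were the closest together of any receptor in the set, with a log2 fold change of -0.01 ± 0.10 and a 95% interval of -0.26 to 0.24. Rxrb (chromosome 17, 34168757 to 34175338, plus strand) stood at 45.5 and 42.2 CPM (WT) against 49.8 and 40.6 CPM (KO). The KO range enclosed the WT range, and the log2 fold change was 0.04 ± 0.14 (95% interval -0.30 to 0.38). The other RXR, Rxrg, had 0.335 CPM in WT replicate 1 and at most 0.0652 CPM in the other 3 libraries, too few reads to test.

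Vdr encodes the vitamin D receptor, which binds calcitriol (chromosome 15, 97684856 to 97741061, minus strand). It stood at 9.38 and 11.7 CPM (WT) against 11.4 and 15.1 CPM (KO). KO was higher within each replicate number, by 0.28 in replicate 1 and 0.37 in replicate 2 on the log2 scale, but KO replicate 1 lay just below WT replicate 2, so the groups overlapped. The log2 fold change of 0.33 ± 0.19 had a 95% interval from -0.15 to 0.81 and an unadjusted p of 0.142 in edgeR. With 252 reads in the shallowest library, the exact 95% Poisson interval of that value was 8.26 to 10.6 CPM. Such intervals cover counting error only, since no molecular identifiers are described for these reads.

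Nr3c1 encodes the glucocorticoid receptor, which waits in the cytoplasm on Hsp90 until it binds corticosteroid (chromosome 18, 39570199 to 39650955, minus strand). It stood at 1165 and 947 CPM (WT) against 1148 and 1002 CPM (KO). Replicate 1 was above replicate 2 in both genotypes, by 0.30 in WT and 0.20 in KO on the log2 scale, while the genotypes differed by 0.03 ± 0.14 (95% interval -0.32 to 0.37). Nr1h2 encodes LXR beta, a receptor for oxysterols (chromosome 7, 51804986 to 51809319, minus strand). It stood at 134 and 117 CPM (WT) against 129 and 132 CPM (KO), both KO values lying between the WT values. Its log2 fold change was 0.06 ± 0.10 (95% interval -0.20 to 0.31).

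Pparg encodes a receptor for fatty acids and their derivatives that is known for its role in Treg cells of visceral fat (chromosome 6, 115311239 to 115440419, plus strand). It had 108 and 303 reads in WT and 192 and 392 reads in KO, which came to 4.02 and 4.76 CPM (WT) against 6.26 and 7.42 CPM (KO). Both KO libraries were above both WT libraries, and within replicate 1 the exact 95% Poisson intervals (3.30 to 4.86 CPM in WT, 5.40 to 7.21 CPM in KO) did not meet. The means were 4.39 ± 0.521 CPM for WT against 6.84 ± 0.819 CPM for KO (SD, n = 2), a ratio of 1.55 in the fit. The log2 fold change was 0.64 ± 0.20 (95% interval 0.13 to 1.14), and the log2 ratios within replicates 1 and 2 were 0.63 and 0.64. This was the largest difference among the 9 receptors and exceeded the spread between replicates, yet it did not pass correction (edgeR unadjusted p = 0.0220, adjusted p = 1.00; DESeq2 unadjusted p = 0.0350).

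Because several other intestinal cell types also carry Pparg, Rarg and Vdr, markers of such cells were set beside them. In bulk RNA, fewer cells of a type and less RNA per cell cannot be told apart. Of 12 epithelial markers 11 were found, and their summed level was 27.3 and 27.8 CPM (WT) against 28.5 and 44.4 CPM (KO). Both KO libraries exceeded both WT libraries for 6 of the 11 and were below them for 2, against 13.5% and 13.4% of all tested genes. Krt8, a keratin of simple epithelia, had 0 and 0.126 CPM (WT) against 1.01 and 3.86 CPM (KO), whereas Epcam, the marker with the highest level, had 14.7 and 14.5 CPM (WT) against 12.2 and 13.7 CPM (KO). The marker Cdx1 had 0 reads in 3 libraries. Krt8 was called higher in KO by DESeq2 (adjusted p = 8.00e-04) and in the authors' deposited table (5.35e-05), not by edgeR (adjusted p = 1.00). The authors' deposited table also had Krt19 (4.46e-04) and Car1 (2.48e-04) under the threshold. Krt19 had 0.149 and 0 CPM (WT) against 0.554 and 2.44 CPM (KO), and Car1 had 0 and 0.314 CPM (WT) against 0.913 and 3.80 CPM (KO). All 3 were higher in KO at an unadjusted p under 0.05 in edgeR, as were 1.64% of all tested genes. The median log2 ratio of the 9 tested epithelial markers was 0.23 within replicate 1 and 1.21 within replicate 2, while that of Pparg was 0.63 and 0.64. The part of epithelial RNA in the Pparg, Rarg and Vdr values was not tested.

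Macrophage markers went the other way. All 10 tested were lower in KO by their log2 fold change (median -0.62), and edgeR and DESeq2 called none, and none had an unadjusted p under 0.05. Their summed level over 11 genes was 162 and 68.5 CPM (WT) against 114 and 46.7 CPM (KO), so that replicate 1 was the higher in both genotypes. The most abundant was Lyz2, at 35.0 and 22.9 CPM (WT) against 30.2 and 17.2 CPM (KO), and Cd163 had at most 0.0978 CPM. Summed dendritic cell markers ran from 36.7 to 46.2 CPM in WT and from 45.6 to 47.1 CPM in KO, led by Zbtb46. This marker had 27.3 and 26.8 CPM (WT) against 30.3 and 36.0 CPM (KO), a difference of 0.29 ± 0.12 on the log2 scale. Of the 5 tested dendritic cell markers 3 were higher and 2 lower in KO, with medians of 0.14 within replicate 1 and -0.13 within replicate 2. B and plasma cell markers summed to 155 and 280 CPM (WT) against 160 and 366 CPM (KO), led by Igj. Of the 8 tested, however, 6 were lower in KO (median log2 fold change -0.32), 3 of them with both KO libraries below both WT libraries (13.4% of all tested genes). Stromal and endothelial markers summed to 121 to 176 CPM in WT and 116 to 183 CPM in KO, led by Pecam1. Their sums were higher in replicate 2 of each genotype. Of the 9 tested, 7 were higher and 2 lower in KO (median log2 fold change 0.16). Their medians were -0.18 within replicate 1 and 0.25 within replicate 2. Markers shared with type 2 innate lymphoid cells, which also use Rora and Pparg, summed to 762 to 821 CPM in WT and 815 to 871 CPM in KO. The marker of highest level was Areg, which Treg cells also express, at 252 and 273 CPM (WT) against 277 and 290 CPM (KO). Of these 9 markers 5 were higher and 4 lower in KO, and Kit, a stem cell factor receptor, was lower at 12.3 and 10.7 CPM (WT) against 6.16 and 4.92 CPM (KO). Kit was called by DESeq2 (adjusted p = 0.0294) and in the authors' deposited table (0.00738), not by edgeR (adjusted p = 1.00). The part of these cells in the receptor values was not tested.

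Rora encodes an ROR receptor that binds its element as a single molecule and is used by type 2 innate lymphoid cells and tissue Treg cells (chromosome 9, 68501593 to 69236053, plus strand). It stood at 1856 and 1259 CPM (WT) against 1653 and 1264 CPM (KO). Replicate 1 exceeded replicate 2 by 0.56 in WT and by 0.39 in KO on the log2 scale, and the KO values lay between the WT values. The log2 fold change between genotypes was -0.09 ± 0.22, and its 95% interval of -0.66 to 0.47 was wide although the gene had 49844 to 80175 reads per library. The mean size of the log2 ratio between replicates exceeded that between genotypes for 5 of the 9 receptors, Rora, Nr3c1, Rxrb, Rxra and Vdr. Both were equal (within 0.001) for Rara and Nr1h2, and the ratio between genotypes was the larger for Pparg and Rarg.

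**Figure D2:**
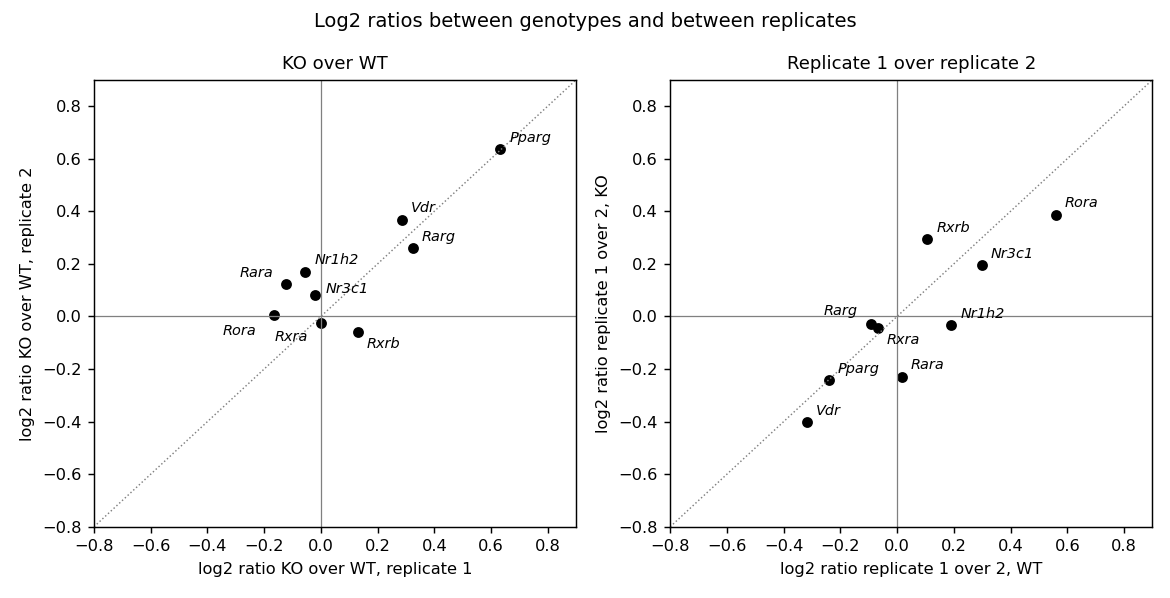
The left panel plots the log2 ratio of KO over WT within replicate 1 (x axis) against that within replicate 2 (y axis), and the right panel the log2 ratio of replicate 1 over replicate 2 within WT (x axis) against that within KO (y axis), 1 point per receptor, with the dotted line marking equality. Pparg, Vdr and Rarg lie in the upper right of the left panel (0.63 and 0.64 for Pparg), and Rora lies farthest to the upper right of the right panel (0.56 and 0.39).

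Within both replicate numbers the sign of the KO over WT ratio was the same for 3 of the 9 receptors, Pparg, Rarg and Vdr, all higher in KO. Over all tested genes, 29.6% were higher in KO within both numbers. Levels of different receptors were not ranked against each other, because CPM are not scaled for transcript length and no transcript lengths were used here.

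As context for Pparg, Rarg and the other receptors, the 250 bases before each annotated start were read from RefSeq (GRCm38.p6), which gave 16 starts for 8 of the 9 genes. They were searched on both strands for GCGTG, the core of the element that Ahr binds with its partner Arnt. It occurred before 7 of the 16 starts (43.8%), in 6 of the 8 genes, against 28.2% of all 32851 promoters and 30.9% of 27025 genes. A gene was counted if any of its starts had a match. The 8 genes had more starts each (16 in all) than genes at large (32851 for 27025), so the shares of genes are not like for like. A match is a description of letters and not evidence of binding. The promoters are shown for Pparg and Rarg, the receptors with non-overlapping groups, at the start that held a match. Letters run 5′ to 3′ on the gene's strand, and capitals mark GCGTG or its reverse complement CACGC. The Pparg stretch is chr6:115360894-115361143 on the plus strand, and the Rarg stretch is chr15:102246501-102246750 on the minus strand.
Pparg: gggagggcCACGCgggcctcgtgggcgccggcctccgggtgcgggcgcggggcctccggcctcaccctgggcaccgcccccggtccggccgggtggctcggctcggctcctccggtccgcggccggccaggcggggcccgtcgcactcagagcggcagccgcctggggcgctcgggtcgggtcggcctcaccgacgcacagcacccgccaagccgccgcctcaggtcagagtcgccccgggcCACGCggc
Rarg: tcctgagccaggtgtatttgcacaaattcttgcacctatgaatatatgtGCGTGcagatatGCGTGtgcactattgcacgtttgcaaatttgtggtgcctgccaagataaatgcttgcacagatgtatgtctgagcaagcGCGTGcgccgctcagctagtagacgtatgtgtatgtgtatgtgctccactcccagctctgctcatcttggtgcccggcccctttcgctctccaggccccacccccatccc

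The Pparg stretch held 2 matches, 242 and 8 bases before the start, and the other 2 Pparg starts held none. The Rarg stretch held 3, at 201, 189 and 110 bases before the start, and the other Rarg start held none. Receptors whose groups overlapped had matches as well. Each is shown with up to 10 bases on either side, for comparison with the Pparg and Rarg stretches, Rxrb being shown at its first start only. The Vdr stretch is chr15:97908361-97908385 (minus strand), the Rora stretch chr9:68653609-68653633, the Rara stretch chr11:98937446-98937470 and the Rxrb stretch chr17:34031584-34031608 (these 3 on the plus strand).
Vdr: aacttagtggGCGTGgttgaggggc
Rora: ctcggccgcaCACGCgtccaccgcc
Rara: tctctttctgGCGTGttgagggagg
Rxrb: acgtggcactCACGCctcgagctcc

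The Vdr match lay 79 bases, the Rora match 167, the Rara match 240 and this Rxrb match 218 bases before the start. Rxra and Nr1h2 had none in these windows. Matches were thus present in receptors whose groups separated and in receptors whose groups overlapped. The hexamer AGGTCA, bound by most RXR partners and by ROR receptors, occurred on either strand before 4 of the 16 starts, in Pparg, Rarg and Rxra, against 14.0% of all promoters.

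The wider receptor family was compared with the set. Of 47 listed nuclear receptors, the 9 included, 44 were found in the table and 32 had enough reads to test, of which 17 were higher and 15 lower in KO. None was called by edgeR, DESeq2 or the authors' deposited table, and Pparg and Rarg were the only ones of the 32 at an unadjusted p under 0.05 (2.85% of all tested genes in either direction). Nr1d1, a heme-binding repressor of clock genes, came next at 44.8 and 39.7 CPM (WT) against 51.7 and 49.8 CPM (KO), and its log2 fold change was 0.27 ± 0.11 (edgeR unadjusted p = 0.0578). Its groups did not overlap. Ppard, a relative of Pparg, had 7.82 and 5.86 CPM (WT) against 8.73 and 7.53 CPM (KO), with 0.26 ± 0.20. Of 9 tested orphan receptors 3 were higher and 6 lower in KO. The lowest p among these orphans were those of Nr4a1 (-0.14 ± 0.13) and Nr2f6 (-0.13 ± 0.15). Among the 32, both KO libraries were above both WT libraries for 4 and below them for 2, against 13.5% and 13.4% of all tested genes. Nr1h3, the LXR alpha gene, had 0.521 and 0.974 CPM (WT) against 1.40 and 0.757 CPM (KO). Ppara and Esr2 had at most 0.0326 CPM in any library.

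**Figure D3:**
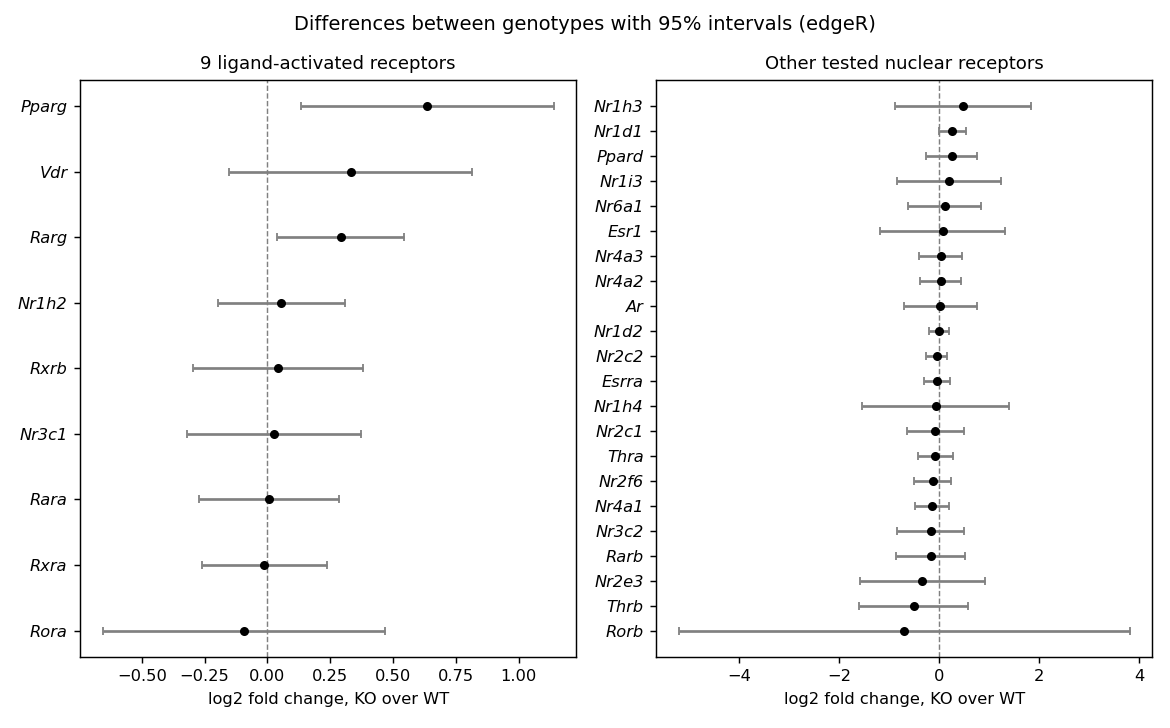
Log2 fold changes of KO over WT (x axis) are plotted with their 95% intervals from edgeR for the 9 receptors (left) and for other tested nuclear receptors (right, on a wider scale), 1 gene per line, with 1 tested receptor not drawn. The intervals of Pparg (0.13 to 1.14) and Rarg (0.04 to 0.54) are the ones that leave out 0, before any correction for the number of genes tested.

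Receptors act through coactivators, which open chromatin once ligand is bound, and corepressors, which occupy the receptor without ligand. Of 14 tested coactivator genes 4 were higher and 10 lower in KO (median log2 fold change -0.04), and of 10 corepressor genes 3 were higher and 7 lower (median -0.07), beside 7424 higher and 6850 lower of all genes tested. No cofactor gene was called by edgeR or DESeq2 or had an unadjusted p under 0.05. Nrip1, a corepressor of many nuclear receptors, had 1117 and 980 CPM (WT) against 969 and 940 CPM (KO), and its log2 fold change was -0.14 ± 0.11. Pprc1, a coactivator related to the PGC-1 proteins, had 27.9 and 25.1 CPM (WT) against 23.8 and 23.6 CPM (KO), with -0.16 ± 0.11. Both KO libraries were below both WT libraries for these 2 genes and for Sin3a, as in 13.4% of all tested genes. Ncoa3, a steroid receptor coactivator, had 491 and 481 CPM (WT) against 491 and 481 CPM (KO).

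Of the retinoid enzymes and binding proteins 16 were found, and 7 could be tested, 4 higher and 3 lower in KO (median log2 fold change 0.26), none of them called or at an unadjusted p under 0.05. Rdh10, which makes retinal from retinol, had 11.5 and 10.5 CPM (WT) against 12.9 and 14.1 CPM (KO), and its log2 fold change was 0.30 ± 0.13 (edgeR unadjusted p = 0.0639). The retinal dehydrogenases that make retinoic acid were nearly absent, with at most 0.157 CPM for Aldh1a2 and 0.502 CPM for Aldh1a1. So was Cyp26a1, an enzyme that degrades it, with at most 0.186 CPM. Cyp26b1, a related enzyme, had enough reads to test, and its log2 fold change was -1.16 ± 0.89 (edgeR unadjusted p = 0.241). Among 11 tested retinoic acid response genes 9 were higher and 2 lower (median log2 fold change 0.19, or 0.22 and 0.06 within replicates 1 and 2). None was called by edgeR or DESeq2 or had an unadjusted p under 0.05. Itga4, an integrin chain of gut homing, had 718 and 649 CPM (WT) against 829 and 737 CPM (KO), and its log2 fold change was 0.20 ± 0.11. Ccr9, the small-intestinal homing receptor, had 42.5 and 48.9 CPM (WT) against 59.2 and 48.0 CPM (KO), a log2 ratio of 0.48 within replicate 1 and of -0.03 within replicate 2, and the groups overlapped.

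For vitamin D, 9 enzyme and response genes were tested, 7 higher and 2 lower in KO (median 0.25), and none was called by edgeR. Spp1, which encodes osteopontin, had the lowest p, with 0.707 and 0.895 CPM (WT) against 3.58 and 2.31 CPM (KO). Its log2 fold change was 1.85 ± 0.38, or 2.27 and 1.32 within replicates 1 and 2 (edgeR unadjusted p = 0.00360, adjusted p = 1.00; DESeq2 adjusted p = 0.136; 0.0795 in the authors' deposited table). Spp1 is also made by epithelial cells and macrophages, whose markers are described with Pparg, and their part in this value was not tested. Cyp27b1, the enzyme that makes calcitriol, had at most 0.0978 CPM, and the calcium-binding protein genes Calb1 and S100g were also too low to test.

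On the glucocorticoid side, 11 genes for receptor chaperones and steroid enzymes were tested, 8 higher and 3 lower (median 0.07). The chaperone Hspa8 had 1999 and 1835 CPM (WT) against 1974 and 2084 CPM (KO), and its log2 fold change was 0.08 ± 0.10. Cyp11a1 had the lowest p in this list. It encodes the enzyme that makes pregnenolone from cholesterol, the first step of steroid synthesis, and had 2.76 and 3.94 CPM (WT) against 6.13 and 9.14 CPM (KO). Its log2 fold change was 1.18 ± 0.29, or 1.14 and 1.20 within replicates 1 and 2 (edgeR unadjusted p = 0.00826, adjusted p = 1.00; DESeq2 adjusted p = 0.266; 0.0960 in the authors' deposited table). Cyp11b1, which completes corticosterone, had 1 read in all. Of 19 tested glucocorticoid response genes 14 were higher and 5 lower (median 0.11), beside 7424 higher and 6850 lower of all genes tested. None of the 19 was called and none had an unadjusted p under 0.05. Rhob, Cxcr4 and Mt1 had the lowest p in this list. Their log2 fold changes were -0.23 ± 0.11, 0.22 ± 0.14 and 0.36 ± 0.25. Tsc22d3, which encodes GILZ, had 507 and 535 CPM (WT) against 498 and 589 CPM (KO), and Fkbp5 had 62.6 and 55.6 CPM (WT) against 60.6 and 49.8 CPM (KO), overlapping in both cases.

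LXR response genes were split, 5 higher and 7 lower of 12 tested (median -0.02). Abcg1, a cholesterol exporter, had 84.9 and 89.6 CPM (WT) against 75.1 and 77.3 CPM (KO), and its log2 fold change was -0.20 ± 0.09, or -0.18 and -0.21 within replicates 1 and 2 (edgeR unadjusted p = 0.0863). Its groups did not overlap. Apoe had 122 and 30.1 CPM (WT) against 90.6 and 16.7 CPM (KO), higher in replicate 1 of both genotypes, as were the summed macrophage markers; Apoe is also a macrophage product, and the part of such cells in it was not tested. PPAR response genes were 6 higher and 6 lower of 12 tested (median 0.01). Fabp5, a fatty acid carrier, was the 1 of the 12 with an unadjusted p under 0.05, at 17.4 and 19.6 CPM (WT) against 22.2 and 28.8 CPM (KO), and its log2 fold change was 0.46 ± 0.16 (edgeR unadjusted p = 0.0301, adjusted p = 1.00). Cd36, Cpt1a, Plin2 and Ucp2 had log2 fold changes from -0.04 to 0.03, and Pdk4 had at most 0.157 CPM.

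Clock genes, several of which carry ROR elements, were 9 higher and 9 lower of 18 tested (median -0.01). Arntl, a clock activator under ROR control, had 105 and 91.7 CPM (WT) against 94.3 and 93.0 CPM (KO), and its log2 fold change was -0.07 ± 0.11. Tnfrsf25, the receptor DR3, had 56.3 and 44.7 CPM (WT) against 46.7 and 36.3 CPM (KO), and its log2 fold change was -0.28 ± 0.18 (-0.27 and -0.30 within replicates 1 and 2). Over the lists of receptors, cofactors, ligand supply and targets together, 136 genes other than the 9 were tested, 72 higher and 64 lower. None was called by edgeR or DESeq2, and 3, Spp1, Cyp11a1 and Fabp5, had an unadjusted p under 0.05, against 2.85% of all tested genes. With the replicate block, edgeR called 5 of the 136, in a fit that called 3.21% of all tested genes. The 5 were Apoe (edgeR with the block, adjusted p = 5.18e-06), Cyp11a1 (1.98e-05), Spp1 (4.84e-04), Fabp5 (0.00329) and Tnfrsf25 (0.0375).

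**Figure D4:**
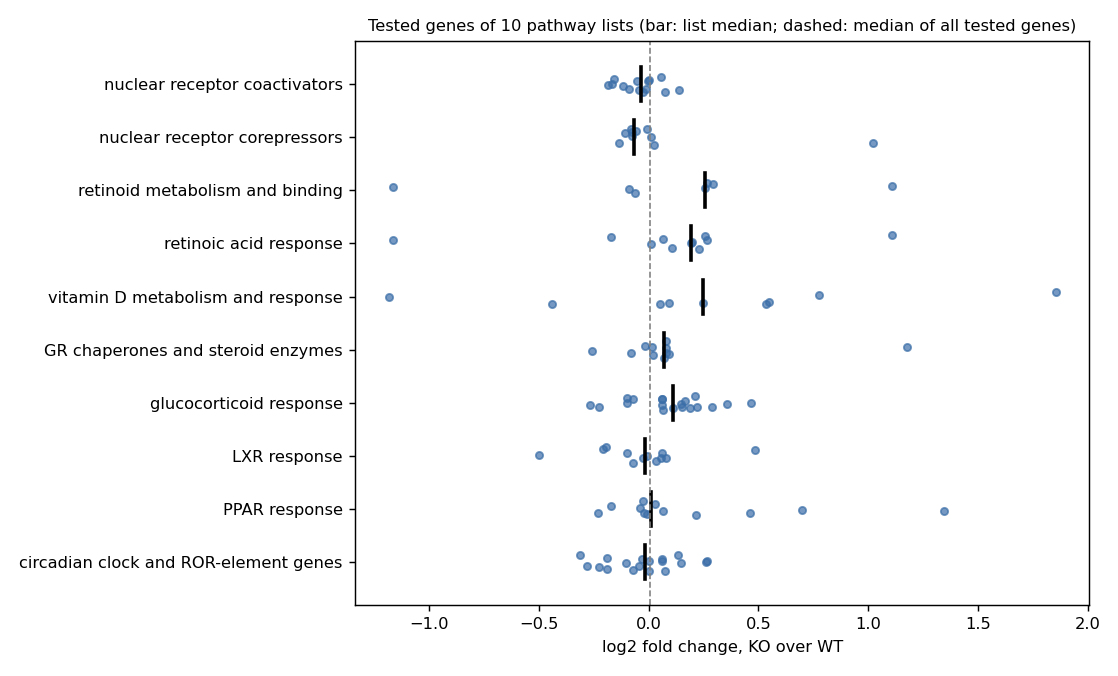
Each point is the log2 fold change of KO over WT (x axis) of 1 tested gene, in 10 lists of receptor cofactors, ligand supply and target genes (y axis); black bars are list medians and the dashed line is the median of all tested genes, 0.01. The medians lie between -0.07 and 0.26, and the outlying points on the right include Spp1 (1.85) and Cyp11a1 (1.18).

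The gene among the other listed ones whose centred log2 CPM over the 4 libraries was closest to each receptor was also recorded. For Pparg it was Trpv6, a vitamin D-induced calcium channel gene (root mean square difference 0.0975 on the log2 scale), and 29 of the 14273 other tested genes were as close or closer. For Rarg it was Stra6, a retinol transporter gene (0.0371, with 27 genes as close), and for Vdr it was Fabp5 (0.0818, with 103). Nr3c1 was closest to the corepressor gene Ncor1 (0.0209, with 37), Nr1h2 to G6pdx (0.0225, with 45), Rxra to Tbl1xr1 (0.0173, with 62), Rxrb to Gps2 (0.0335, with 86) and Rara to Srebf1 (0.0281, with 60). Rora was closest to Aldh1a3 (0.00290, with 1), a gene with 38 reads in all. Trpv6 and Stra6 were also low, with 151 and 148 reads. With 4 libraries such likeness is a description only.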

How the data were processed

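Total RNA of 4 libraries was depleted of ribosomal RNA and read as 50 bp single-end reads, per the labels' protocols; the series' 4 ATAC-seq samples are not used here. The deposited table holds raw read counts per gene, with positions. It also holds an adjusted p-value per gene, which the authors computed for a comparison the table does not name; it was read as KO against WT. TopHat2, DESeq and mm9 are named in the submitters' processing notes; for the counting tool, annotation and strand use, nothing is stated (not given in the sources used here).

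Counts were fitted with edgeR 4.0.16 (R 4.3.3; filterByExpr, 14274 genes kept and 4917 not tested; TMM scaling; quasi-likelihood F-test, genotype only; Benjamini-Hochberg adjustment over all tested genes, threshold 0.05). Standard errors are the size of the log2 fold change over the square root of F. CPM are counts per 1000000 of the tested total times the TMM factor. Log2 ratios within replicates used a prior count of 2. Alternatives used DESeq2 1.42.0, limma 3.58.1 (voom), other scalings and filters, the newer quasi-likelihood method, robust estimation, a replicate block and leaving out each library. The scripts were tested on simulated data.

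The 9 genes and the gene lists were chosen with earlier results of these data known. Named genes are the 9, up to 3 tested genes of lowest p per list, pathway-defining genes near 0 and the most abundant marker per cell type. Ncoa3, Tsc22d3, Fkbp5, Apoe, Cd36, Cpt1a, Plin2, Ucp2, Arntl, Nr1h3, Aldh1a1, Kit, Krt8, Krt19 and Car1 were named after their values were seen. For 1 listed receptor gene, which stays in the counts over lists, values are not reported here.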

Additional observations from a re-analysis of the deposited data

How the results depend on the processing

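No member receptor was called in any of the 13 alternatives except with the replicate block, where edgeR called 1, Pparg (log2 fold change 0.64, adjusted p = 0.0268), and 5 of the other listed genes. Rarg narrowly missed the threshold with the block (log2 fold change 0.29, edgeR adjusted p = 0.0501). That fit called 458 genes in all (3.21% of those tested). It has 1 residual degree of freedom, and the labels do not say what a replicate number marks; deviations of same-numbered libraries correlated at 0.641 over 14274 genes. Those 5 were Apoe (-0.62), Cyp11a1 (1.19), Spp1 (1.77), Fabp5 (0.46) and Tnfrsf25 (-0.28). Over all genes, 0 were called in the main test, 48 by DESeq2, 52 without a low-count filter, and 0 to 2 without a single library.

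Pparg, Rarg and Vdr were higher in KO in all 13 alternatives, with log2 fold changes of 0.50 to 0.77, 0.24 to 0.34 and 0.11 to 0.50 without a single library (Vdr was lowest without KO replicate 2). The direction of the other 6 turned when a library was left out, with ranges of -0.11 to 0.11 for Rara (turned without WT or KO replicate 2), -0.047 to 0.022 for Rxra (without WT replicate 2), -0.12 to 0.18 for Rxrb and for Nr3c1 (both without WT replicate 2 or KO replicate 1), -0.038 to 0.15 for Nr1h2 (without WT replicate 2) and -0.35 to 0.21 for Rora (without WT replicate 1 or KO replicate 2). In such a fit the remaining library of a genotype is assumed to vary as the other genotype's do. The groups of Pparg and Rarg did not overlap, so their direction was bound to hold in such fits. The alternatives that left out no library refitted the same 4 libraries. Rara also turned without a low-count filter (-0.00060). Leaving out a library also turned Nr4a1 (-0.28 to 0.012), Nr2e3 (-0.77 to 0.022), Ncoa6 (-0.47 to 0.054), Dnaja1 (-0.19 to 0.028) and Abca1 (-0.46 to 0.0058).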
